A study of Mus musculus with 3 samples.

Results

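Tfr subcluster 2 is a group of follicular regulatory T cells (Tfr cells) that the authors separated by clustering single-cell transcriptomes. Its members are the cells with cluster number 2 in the authors' table of Tfr cells, matched to the deposited counts by barcode. The counts are of UMIs (unique molecular identifiers), each of which marks a captured RNA molecule. The rule takes 981 of 4909 Tfr entries and of 18693 entries in all, with 275 in wild-type (WT) run 1, 257 in WT run 2 and 449 in the library from mice labelled Siglec-G BKO (BKO), where Siglec-G is deleted in B cells. Follicular helper T cells (Tfh cells) and Tfr cells were sorted by surface markers 14 days after immunisation with liposomes carrying ovalbumin, and the tissue is labelled as spleen. Both genotypes were immunised alike, and the sequenced T cells are not the cell type named for the deletion. The labels name no Cre driver, age or number of mice per library. The samples labelled as 2 WT replicates hold the same cells sequenced in 2 runs, with 197 of 335 distinct WT member barcodes being members in both. Each genotype is thus 1 library, no p-value is given, and no difference below has a replicate check.

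Tfr cells are Foxp3-expressing regulatory T cells that enter B cell follicles and restrain the germinal centre response. Regulatory T cells are commonly described along a range from resting or central cells, which carry homing genes such as Ccr7, to effector cells, which carry Prdm1, Icos, Tigit and Il10. Ribosomes are assembled largely in the nucleolus, where ribosomal RNA is made, modified and joined to ribosomal proteins with the help of factors such as nucleophosmin and dyskerin. T cells raise this machinery when they grow.

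Every member and every other cell of the Tfr table had at least 1 UMI of Foxp3, while among Tfh cells 0.402%, 9.95% and 0.908% did. Foxp3 detection thus largely followed the division into Tfr and Tfh cells and is no finding about the members. Values are given in the order WT run 1, WT run 2 and BKO. Members made up 19.4% of Tfr cells in WT run 1 (95% Clopper-Pearson interval 17.4 to 21.6), 17.7% in WT run 2 (15.8 to 19.8) and 21.97% in BKO (20.2 to 23.8). These intervals cover the counting of cells only, and with 1 library per genotype the shares were not tested against each other. The remaining Tfr cells were distributed differently between genotypes, with subcluster 0 taking 39.1%, 39.96% and 15.4% and subcluster 1 taking 16.2%, 17.1% and 36.3% of Tfr cells. The reference for the members therefore differed in makeup. Of the 275 members in WT run 1, 197 were members again in WT run 2, 26 lay in other Tfr subclusters, and 48 (17.5%) lay among Tfh cells. In BKO, 2 members shared a barcode with a WT cell and 0 with a WT member.

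The members yielded 1478617, 2248167 and 3215838 UMIs in all. Levels are summed UMIs of a group's cells scaled to 1000000 in all (CPM), and 95% Poisson intervals cover counting error only. Ratios are log2 of members over the other Tfr cells of the same library after 0.5 CPM was added. A gene passed the size rule at 1.5-fold with a mean of at least 20 CPM, in both runs for WT. Since the cells were clustered on their expression, these differences describe the subcluster and are no test of it.

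The members stood apart by a high share of ribosomal protein transcripts. These took a median of 21.2%, 21.9% and 22.998% of a member's UMIs against 14.5%, 15.1% and 16.8% in other Tfr cells. The median of the other Tfr cells was exceeded by 258 of 275 members (93.8%), 244 of 257 members (94.9%) and 402 of 449 members (89.5%). Members had the highest median among the Tfr subclusters in each library, ahead of subcluster 4 at 17.1%, 17.6% and 19.98%. Such shares also occurred among Tfh cells, with medians of 19.9%, 19.4% and 21.8% in Tfh subcluster 2, 18.9%, 19.7% and 22.9% in Tfh subcluster 4 and 18.9%, 19.8% and 24.03% in Tfh subcluster 6, the last above the members in BKO. Members were slightly shallower, with medians of 4778, 8151 and 6681 UMIs against 5249, 8518 and 7180.0 and of 2055, 2846 and 2440.0 genes against 2319, 3077 and 2715. Free RNA, read in BKO from 906453 barcodes of 1 to 50 UMIs, held 18.6% ribosomal protein UMIs, against 24.7% of the summed UMIs of BKO members and 17.6% in other BKO Tfr cells. The part of free RNA in these shares was not tested.

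All 78 measured ribosomal protein genes had ratios above 0 in the 3 libraries, with medians of 0.49, 0.50 and 0.49 against -0.16, -0.15 and -0.19 over the 6132 genes measured in both genotypes. In WT and BKO alike 24 of those genes (0.391%) were higher past the rule, among them 9 ribosomal protein genes (such as Rpl10a, Rpl28, Rpl35, Rplp0, Rps19 and Rps2), 13 other named genes and 2 gene models without a name. Reads of ribosomal protein genes can be split with processed pseudogenes, so their levels are uncertain. Rps2, a protein of the small subunit picked out after its values were seen, stood at 2384, 2496 and 2609 CPM in members against 1471, 1593 and 1616 CPM. Rplp0, of the large subunit's stalk and chosen likewise, stood at 3435, 3304 and 3481 CPM in members against 2218, 2134 and 2159.7 CPM. The number past the rule depended on the processing. With other scalings, 41 ribosomal protein genes passed with TMM factors and 40 with ribosomal and mitochondrial genes left out of the total, since these scalings raised the median ratio of all genes by 0.12 to 0.16. With subclusters 0, 1, 3 and 4 weighted equally as the reference, the medians were 0.47, 0.46 and 0.45, all 78 ratios stayed above 0 and 1 gene passed. With the mean of per-cell CPM 4 passed, and with each cell thinned to 2500 UMIs 3. With the running median over intron length taken off 2 passed, and 0 of the 9 were among them.

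The 13 named genes include nucleolar proteins, enzymes of nucleotide supply and mitochondrial proteins. Npm1 (chr11:33152287-33163206, GRCm38, minus strand) encodes nucleophosmin, an abundant nucleolar chaperone. It had 950.2 CPM (901 to 1001) in WT run 1 members, 881 CPM (843 to 921) in WT run 2 members and 792 CPM (761 to 823) in BKO members. Other Tfr cells had 499 CPM (482 to 516) in WT run 1, 478 CPM (466 to 491) in WT run 2 and 455 CPM (443 to 468) in BKO. The intervals were separate in each library, the folds were 1.90, 1.84 and 1.74, and BKO free RNA held 620.4 CPM. Dkc1, the pseudouridine synthase dyskerin, stood at 62.9, 52.9 and 50.1 CPM in members against 33.8, 31.3 and 31.5 CPM. Impdh2, the rate-limiting enzyme of guanine nucleotide synthesis, stood at 52.8, 46.7 and 46.3 CPM in members against 29.4, 29.2 and 27.4 CPM. Nme2, a nucleoside diphosphate kinase, stood at 548, 512 and 476 CPM in members against 306, 278 and 281 CPM. Its neighbour Nme1 is nearly identical, and reads may be split between them.

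Mitochondrial proteins and the cytokine MIF were also among them. Hspe1, the mitochondrial co-chaperonin Hsp10, stood at 373, 346 and 345 CPM in members against 187, 186 and 212 CPM, with the same reservation about pseudogenes. C1qbp, a mitochondrial matrix protein, stood at 84.5, 72.1 and 64.7 CPM in members against 34.8, 35.1 and 41.2 CPM. Mrpl12, of the mitochondrial ribosome, stood at 72.4, 62.7 and 72.5 CPM in members against 37.2, 37.1 and 47.8 CPM. Members were above the others in each library for all 3. Mif stood at 431, 413 and 504 CPM in members against 217, 210.1 and 317 CPM. Galk1 (galactokinase), Selenoh (a nucleolar selenoprotein), Ddah1, Tuba1b (an alpha-tubulin) and Siva1 completed the 13, with ratios from 0.60 to 1.19. Several of these levels were not particular to the members. Tfh subcluster 2 had Npm1 at 949.6, 906.6 and 696.7 CPM and Hspe1 at 369, 351 and 295 CPM. Mif stood at 499, 458 and 366 CPM there and at 367, 368 and 467 CPM in Tfr subcluster 3. In BKO, Tfh subcluster 2 was below the members for these 3 genes. Ddah1 was lower there in each library, at 14.3, 18.1 and 28.3 CPM against 33.8, 29.4 and 33.3 CPM in members.

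**Figure D1:**
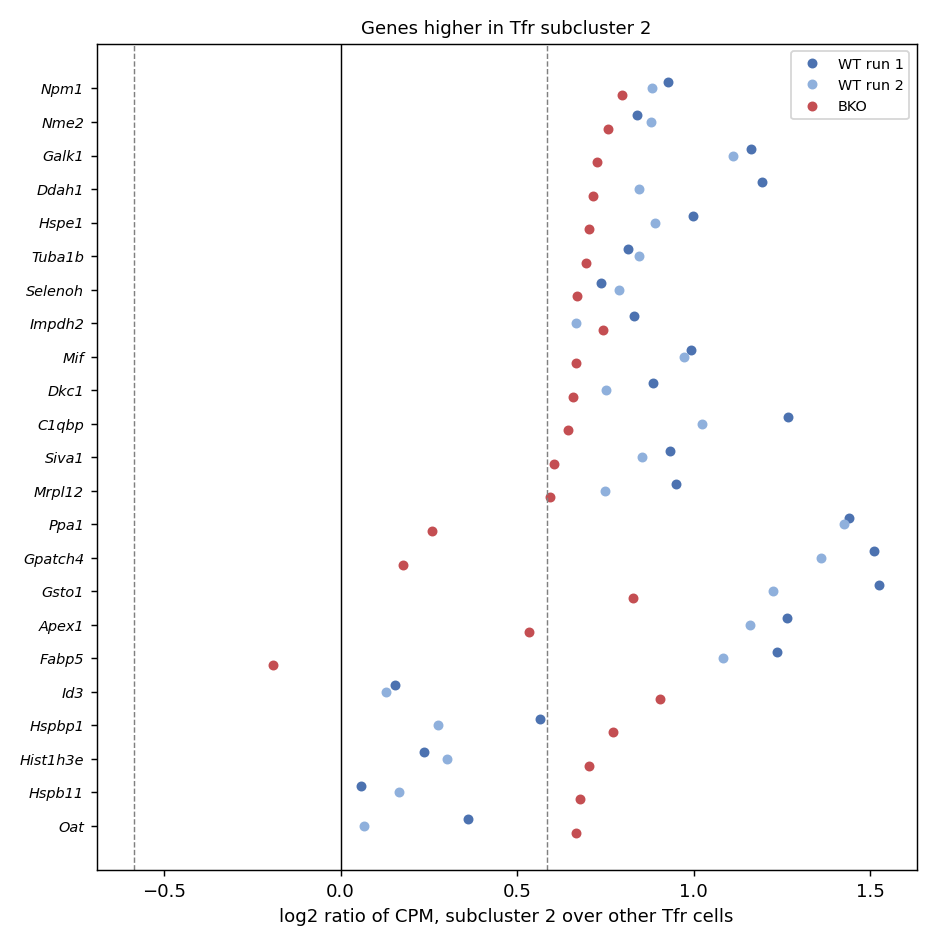
Log2 ratios of CPM in Tfr subcluster 2 over other Tfr cells for genes higher in all 3 libraries, in WT only and in BKO only; each point is 1 library and dashed lines mark 1.5-fold. Npm1 lies at 0.93, 0.88 and 0.80, and Ppa1, of the WT group, at 1.44, 1.43 and 0.26.

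Promoter letters are shown for the leading genes that hold the hexamer CACGTG, an E-box that MYC and related factors can bind, and for Rps2 with the heptamer CCGGAAG, which ETS factors can bind. Each run is the 250 bases before the RefSeq start (GRCm38.p6), 5′ to 3′ on the gene's strand, with the motif in capitals. They lie at chr9:108560186-108560435 (plus strand, Impdh2), chr11:116012720-116012969 (minus, Galk1), chr2:84670709-84670958 (minus, Selenoh) and chr17:24719813-24720062 (plus, Rps2). GENCODE places the first base of Impdh2 and of Selenoh further upstream, inside these windows.
Impdh2: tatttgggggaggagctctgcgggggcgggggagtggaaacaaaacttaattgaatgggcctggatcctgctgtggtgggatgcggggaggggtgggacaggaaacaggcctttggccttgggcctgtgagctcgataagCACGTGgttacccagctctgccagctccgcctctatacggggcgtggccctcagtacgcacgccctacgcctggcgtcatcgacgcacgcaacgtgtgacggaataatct
Galk1: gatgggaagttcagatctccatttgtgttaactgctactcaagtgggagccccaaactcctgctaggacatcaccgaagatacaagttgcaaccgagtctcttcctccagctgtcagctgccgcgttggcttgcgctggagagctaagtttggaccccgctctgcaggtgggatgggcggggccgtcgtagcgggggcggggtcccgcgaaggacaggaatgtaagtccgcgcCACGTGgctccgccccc
Selenoh: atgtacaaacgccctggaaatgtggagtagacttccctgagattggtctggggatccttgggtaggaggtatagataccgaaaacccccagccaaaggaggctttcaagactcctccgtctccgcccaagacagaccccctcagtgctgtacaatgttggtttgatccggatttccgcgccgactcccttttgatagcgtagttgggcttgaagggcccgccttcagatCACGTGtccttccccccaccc
Rps2: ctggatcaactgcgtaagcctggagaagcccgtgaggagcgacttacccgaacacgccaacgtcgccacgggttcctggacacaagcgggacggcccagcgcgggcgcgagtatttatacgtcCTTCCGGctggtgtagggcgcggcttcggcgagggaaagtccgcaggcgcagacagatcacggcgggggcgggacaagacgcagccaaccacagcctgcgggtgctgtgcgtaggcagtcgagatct

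The motif begins 110 bases before the RefSeq start in Impdh2, 17 in Galk1, 21 in Selenoh and, as its reverse complement CTTCCGG, 127 in Rps2. Both strands were searched, and CACGTG is a palindrome. Of the 13 leading genes 12 had a promoter in the table, and 3 of them (25%) held CACGTG against 6.86% of the 27025 genes with a promoter. That reference is all genes with a promoter, whether measured in these cells or not. Among the 12, 1 (8.33%) held CCGGAAG. Of the 9 leading lower genes with a promoter, 1 (11.1%) held CACGTG and 1 held CCGGAAG. Of the ribosomal protein genes 58 of 78 had a promoter, of which 5 (8.62%) held CACGTG and 18 (31.03%) held CCGGAAG, against 7.83% of all for the latter. A match describes letters only. Myc, picked out after its values were seen, stood at 20.3, 16.9 and 11.5 CPM in members against 9.52, 13.2 and 14.4 CPM in other Tfr cells, above them in the WT runs and below them in BKO.

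A wider list of 30 nucleolar and ribosome assembly genes was drawn up after these values were seen. Its 24 members measured in both genotypes had median ratios of 0.83, 0.67 and 0.42. In WT 14 of 26 passed as higher (1.43% of all genes did), in BKO 5 of 24 (0.81% of all genes), and 0 were lower in either. The 5 in BKO also passed in WT, so they are among the genes higher in all 3 libraries. As the list was chosen with the values known, these counts describe it and are no test. Fbl, the ribosomal RNA methyltransferase fibrillarin, stood at 124, 99.2 and 80.8 CPM in members against 58.6, 55.2 and 60.5 CPM. Eif5a, a translation factor, stood at 446, 398 and 382 CPM in members against 232, 214 and 261 CPM. Ran, the nuclear transport GTPase, stood at 353, 316 and 282 CPM in members against 184, 177 and 224 CPM. Those 3 passed in WT and not in BKO, a difference that was not tested. Ncl (nucleolin) stood at 529.5, 477 and 428 CPM in members against 382, 373 and 372 CPM and passed in neither. With the other subclusters weighted equally the medians were 0.69, 0.56 and 0.45, and with each cell thinned to 2500 UMIs they were 0.55, 0.48 and 0.34.

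Genes higher in WT and short of the rule in BKO were led by Ppa1, which encodes inorganic pyrophosphatase, at 67.6, 56.5 and 39.2 CPM in members against 24.6, 20.7 and 32.7 CPM. Gpatch4 stood at 37.2, 34.7 and 15.2 CPM in members against 12.7, 13.2 and 13.4 CPM. Fabp5, a fatty acid binding protein, stood at 73.04, 58.7 and 54.7 CPM in members against 30.7, 27.4 and 62.5 CPM. Members had less Ppa1 and Gpatch4 in BKO than in either run, while for Fabp5 the other Tfr cells were also higher in BKO. Gsto1 had ratios of 1.53, 1.23 and 0.83 and missed the level minimum in BKO, and Apex1, a DNA repair endonuclease, had 1.26, 1.16 and 0.53.

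Genes higher in BKO alone were led by Id3, an inhibitor of E protein transcription factors. Id3 in members was 241 CPM (216 to 267) in WT run 1, 230.4 CPM (211 to 251) in WT run 2 and 256 CPM (239 to 274) in BKO, and in other Tfr cells it was 217, 211 and 136 CPM. Member levels were alike in the 3 libraries, and the reference cells differed. Id3 in Tfr subcluster 1 stood at 219, 204 and 66.7 CPM, and that subcluster gave 742 of the 1595 other BKO Tfr cells. Subcluster 0 had 245, 228 and 236 CPM, close to the members, and subclusters 3 and 4 had 183 and 127 CPM in BKO. With the other subclusters weighted equally the Id3 ratios were 0.27, 0.23 and 0.74. Hspbp1, Hist1h3e, Hspb11 and Oat followed, with BKO ratios of 0.77, 0.70, 0.68 and 0.67 from members at 26.1 to 43.8 CPM.

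Genes of energy metabolism had ratios mostly above 0, and none passed the rule in all 3 libraries. Of 40 nuclear-encoded oxidative phosphorylation genes, 39 had ratios above 0 in all 3 libraries, with medians of 0.37, 0.37 and 0.25, and 1, the ATP synthase gene Atp5g1, passed as higher in WT (1.43% of all genes did). Atp5e, a subunit of ATP synthase, stood at 814, 887 and 1067 CPM in members against 601, 649 and 824 CPM. Glycolysis genes had medians of 0.34, 0.21 and 0.34 over 14 genes, with Gapdh at 952, 924 and 1211 CPM in members against 689.9, 677 and 889.5 CPM. Pgam1, a glycolytic mutase, passed as higher in WT only, and Slc2a3, a glucose transporter, as lower in BKO only (13.5% of all genes did). Cell cycle genes had medians of 0.32, 0.26 and 0.25 over 9 genes, none past the rule in all 3 libraries. Among 10 heat shock and dissociation genes, with medians of 0.42, 0.39 and 0.18, Hspe1 was higher and Zfp36, an mRNA decay factor, was lower in all 3 libraries. In WT 4 of the 10 passed as higher, against 1.43% of all genes, and 1 as lower. In BKO 1 passed as higher, against 0.81% of all genes, and 1 as lower, against 13.5%. Actin and cytoskeleton genes had medians of 0.21, 0.24 and 0.16 and no call among 16. The 13 mitochondrially encoded genes had medians of 0.05, 0.03 and 0.14 and took 3.80%, 3.78% and 3.93% of a member's UMIs.

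**Figure D2:**
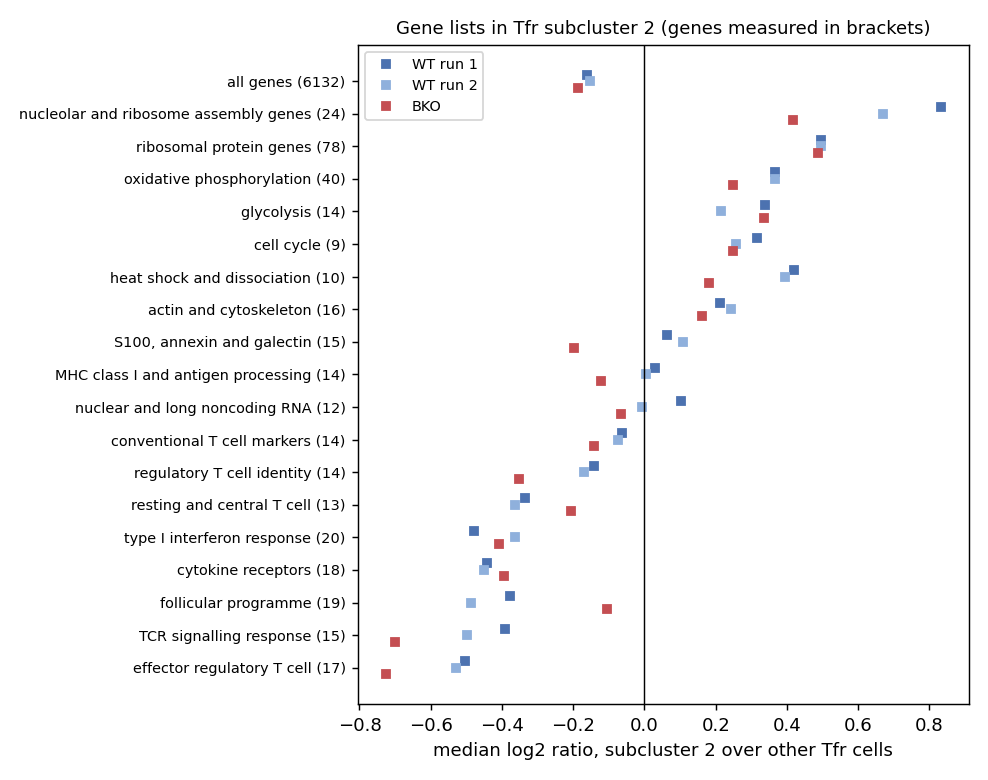
Median log2 ratio of Tfr subcluster 2 over other Tfr cells for each gene list, 1 mark per library, with the number of genes measured. Nucleolar genes have medians of 0.83, 0.67 and 0.42 and effector regulatory T cell genes of -0.50, -0.53 and -0.73.

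More genes were lower than higher: 481 of 6498 (7.4%) in WT against 93 higher, 850 of 6298 (13.5%) in BKO against 51, and 270 of 6132 (4.4%) in both. Among genes measured in both, the shared lower genes are 59.2% of the WT calls and 32.5% of the BKO calls, and the shared higher genes are 26.97% and 57.1%. The lower genes were often long. Genes with over 100 kb of intron had median ratios of -0.51, -0.50 and -0.55, and 18.97% of these 796 genes were lower in all 3 libraries. The 760 genes with under 3 kb had medians of 0.24, 0.22 and 0.16, and 1.05% were lower. Genes with over 100 kb of intron took 11.7%, 11.7% and 9.13% of a member's UMIs against 15.9%, 15.9% and 12.8%. Malat1, an abundant RNA retained in the nucleus, took 1.54%, 1.60% and 1.53% against 2.23%, 2.34% and 2.37%. The part of nuclear RNA in the lower calls was not tested. With the running median over intron length taken off, 51 genes were lower and 19 higher in all 3 libraries, of which 45 and 6 were in the first counts.

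**Figure D3:**
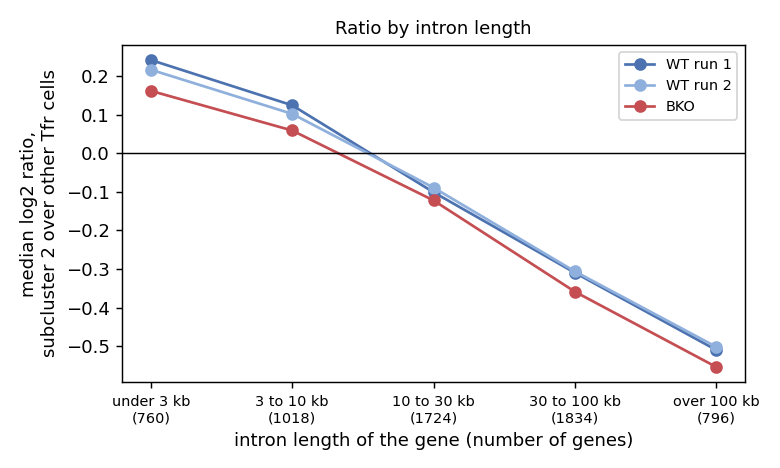
Median log2 ratio of Tfr subcluster 2 over other Tfr cells in bins of intron length, 1 line per library, with the number of genes in each bin. The medians go from 0.24, 0.22 and 0.16 under 3 kb to -0.51, -0.50 and -0.55 over 100 kb.

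Among the leading lower genes, Neb (nebulin, chr2:52136647-52378474) stood at 10.8, 7.56 and 10.9 CPM in members against 43.6, 41.8 and 108 CPM. Tfr subcluster 1 had 167, 154 and 215 CPM of Neb, while subclusters 0 and 3 had 10.6, 11.1 and 10.5 and 11.4, 11.4 and 12.4 CPM, close to the members. Kansl1l stood at 54.8, 60.05 and 63.1 CPM in members against 173, 169.5 and 186 CPM, and members were below subclusters 0, 1, 3 and 4 in each library. Ccl5, a chemokine of effector T cells, stood at 32.5, 45.4 and 13.1 CPM in members against 480.0, 345 and 30.8 CPM. In the WT runs the 27 and 20 cells of subcluster 6 carried Ccl5, at 13388 and 13662 CPM, and BKO had 0 such cells. With subclusters 0, 1, 3 and 4 weighted equally the Ccl5 ratios were -0.55, -0.62 and -1.22, short of the rule in WT run 1. Il18r1, a receptor chain for interleukin 18, stood at 20.97, 16.5 and 9.33 CPM in members against 47.7, 46.6 and 37.3 CPM. Il18r1 was lower still in subcluster 3, at 8.99, 13.7 and 3.92 CPM. Arnt2, Cep112, Dusp16, Setbp1, Dscam, Lncpint, Prkce, Zswim6 and Slc24a3 had ratios from -1.01 to -2.31. Dscam was high in subcluster 4, at 753, 766 and 675 CPM. Dscam in members, at 34.5, 27.1 and 35.1 CPM, was above subcluster 1, at 8.84, 10.2 and 25.9 CPM, in each library.

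Effector regulatory T cell genes were low in the members. Of 17 measured in both genotypes, 7 were lower in all 3 libraries and 0 higher, against 4.4% of all genes lower, and the count was 7 with TMM factors. Icos, a costimulatory receptor (chr1:60977927-61000320), had 208 CPM (185 to 232) in WT run 1 members, 213 CPM (194 to 233) in WT run 2 members and 273 CPM (255 to 291) in BKO members, against 407, 419.7 and 590.4 CPM in other Tfr cells. Nt5e, the ectoenzyme CD73 that makes adenosine, stood at 191, 177 and 208 CPM in members against 320.3, 330.2 and 399.9 CPM. Entpd1, the ectoenzyme CD39 that acts before it, stood at 31.8, 38.3 and 20.5 CPM in members against 67.9, 70.2 and 77.8 CPM. Tigit, Tnfrsf1b (TNF receptor 2), Itgb8 (an integrin chain that activates TGF-beta) and Penk (the enkephalin precursor) were the other 4. Each of the 7 was below the other Tfr cells in each library, but not all were below every subcluster. Icos, Nt5e, Tigit, Tnfrsf1b and Itgb8 in members were below subclusters 0, 1, 3 and 4 in each library. Entpd1 was lower in subcluster 3 than in members, at 20.4, 21.04 and 18.3 CPM. Penk was high in subcluster 4 alone, at 1302, 1339.9 and 979 CPM. Penk in members, at 77.8, 57.4 and 23.3 CPM, was above subclusters 0, 1 and 3 in both WT runs, which had 19.3 and 29.4 CPM, 24.3 and 33.7 CPM and, in subcluster 3, 40.9 and 55.4 CPM, and near them in BKO.

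Prdm1, which encodes the transcription factor Blimp-1 (chr10:44437177-44528501), gave 4, 16 and 30 UMIs in members, or 2.71 CPM (0.737 to 6.93) in WT run 1, 7.12 CPM (4.07 to 11.6) in WT run 2 and 9.33 CPM (6.29 to 13.3) in BKO. In other Tfr cells it stood at 27.2, 26.3 and 68.3 CPM, and it missed the level minimum in WT. Tfr subcluster 1 was highest among the subclusters of at least 50 cells, at 94.3, 89.2 and 132 CPM, while subclusters 0, 3 and 4 lay between 7.32 and 16.6 CPM. Il10, picked out after its values were seen, gave 1, 0 and 5 UMIs in members and stood at 9.81, 6.73 and 31.8 CPM in other Tfr cells. S100a4, a calcium-binding protein common in effector cells, stood at 343, 376 and 202 CPM in members against 658, 598 and 764 CPM, and subcluster 1 was high again, at 1780.2, 1655 and 1405 CPM. Under TMM factors S100a4 did not pass in all 3 libraries.

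**Figure D4:**
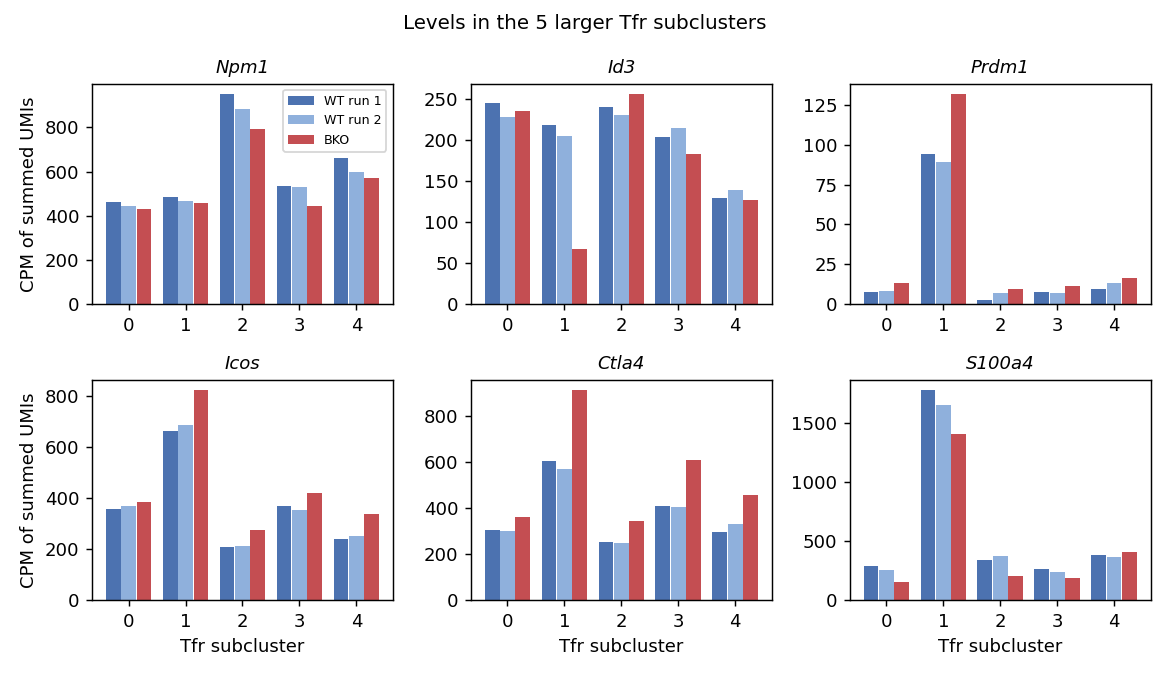
Levels of selected genes in the larger Tfr subclusters, in CPM of summed UMIs, by library. Npm1 is highest in subcluster 2, at 950.2, 881 and 792 CPM, and Icos is lower there than in subclusters 0, 1 and 3.

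Of 14 genes of regulatory T cell identity measured in both genotypes, 1 was lower in all 3 libraries (4.4% of all genes were), with medians of -0.14, -0.17 and -0.35. In WT 2 of 15 were lower (7.4% of all genes) and in BKO 3 of 14 (13.5%). The gene shared was the inhibitory receptor gene Ctla4, at 251, 248 and 345 CPM in members against 379.6, 376 and 687 CPM. It did not pass in all 3 with either other scaling. Foxp3 stood at 357, 329 and 298 CPM in members against 356, 331 and 363 CPM. All cells compared held at least 1 UMI of it, so these levels are no test, and BKO free RNA held 112 CPM. Ikzf2 (Helios) stood at 2573, 2523 and 2113 CPM in members against 3303, 3376 and 3277 CPM, past the rule in BKO only. Izumo1r, the folate receptor 4 of regulatory T cells, stood at 849, 831 and 1034 CPM in members against 831, 811 and 1015 CPM. Il2ra (CD25) passed as lower in WT only, at 57.5, 60.05 and 57.2 CPM in members against 102, 112 and 76.5 CPM.

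Of 15 measured genes of a response to the T cell receptor, 4 were lower in all 3 libraries (Egr1, Cd69, Nfkbid and Tnfaip3) and 2 with TMM factors, against 4.4% of all genes lower, and the medians were -0.39, -0.50 and -0.70. Egr1, an immediate early transcription factor, stood at 37.9, 33.8 and 41.98 CPM in members against 114, 123 and 140.3 CPM. Egr1 was highest in Tfr subcluster 3, at 333, 361 and 287 CPM, and stood at 51.6, 51.5 and 44.6 CPM in subcluster 0 and 15.4, 18.5 and 48.5 CPM in subcluster 4. Nr4a3, an early gene of the same response, stood at 8.12, 5.78 and 1.55 CPM in members against 35.4, 41.3 and 26.1 CPM, and at 175, 189 and 79.1 CPM in subcluster 3. Members were thus low beside subcluster 3 for both genes.

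The follicular programme had 4 of 19 lower in all 3 libraries (Icos, Tox, Btla and Rgs16) and 1 with TMM factors, against 4.4% of all genes lower, and the medians were -0.38, -0.49 and -0.10. Bcl6, the transcription factor that directs follicular T cells, passed as lower in WT only, at 83.9, 74.7 and 120.0 CPM in members against 129, 135 and 108 CPM. Cxcr5, the follicle homing receptor, stood at 102, 105 and 128 CPM in members against 129.7, 125 and 133 CPM, and passed in neither genotype. Pdcd1 (PD-1) stood at 168, 154 and 225 CPM in members against 195, 192 and 242 CPM, and also passed in neither.

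No resting or central gene passed among 13, with medians of -0.33, -0.36 and -0.21. Ccr7, a receptor for homing to lymph nodes, missed the level minimum in both genotypes and so is not among the 13. It stood at 8.12, 8.45 and 21.5 CPM in members against 5.56, 6.02 and 6.97 CPM. Members were above the other Tfr cells in each library, but the WT levels rest on few UMIs and those differences may lie within counting error. Klf2 stood at 33.1, 36.03 and 46.02 CPM in members against 61.8, 53.7 and 42.5 CPM. Tcf7, a factor of resting and follicular T cells, stood at 199.5, 209 and 261 CPM in members against 252, 256 and 216 CPM. Klf2 and Tcf7 were below the others in the WT runs and above them in BKO, and with the other subclusters weighted equally the Tcf7 ratios were -0.15, -0.08 and 0.05.

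The remaining lists had few calls, beside 4.4% of all genes lower in all 3 libraries. Interferon response genes had 1 of 20 lower (Gbp7) and medians of -0.48, -0.36 and -0.41. Cytokine receptors had 2 of 18 lower (Tnfrsf1b and Il18r1) and medians of -0.44, -0.45 and -0.39. Survival genes had 1 of 12 lower, the kinase gene Pim1, at 93.3, 102 and 149.6 CPM in members against 186, 186 and 286 CPM. Homing genes had 1 of 15 lower (Rgs16), S100, annexin and galectin genes 1 of 15 (S100a4), and nuclear and long noncoding RNA 2 of 12 (Neat1 and Dleu2). None of 14 MHC class I genes, 14 conventional T cell markers or 4 genes of other helper subsets passed in all 3 libraries.

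The part of other cell types in the results was not tested, and the levels of their markers were as follows. Summed over 16 B cell markers the members reached 734, 754 and 1124 CPM against 884, 909.9 and 1329.7 CPM, with 6, 6 and 4 markers at 0, Ms4a1 and Ly6d among them in each library. Ighm gave most of the sum, at 527, 542 and 899.6 CPM in members against 663, 688 and 1052 CPM, and BKO free RNA held 585 CPM. The 14 CD8 T and NK cell markers summed to 128, 111 and 68.4 CPM against 633, 452 and 79.9 CPM, with Klrd1, Klrk1 and Ncr1 at 0 in members of each library. Nkg7 and Ccl5 were high in subcluster 6 of the WT runs, with Nkg7 at 1581 and 1249 CPM. Nkg7 in members stood at 62.2, 40.03 and 35.4 CPM, above subclusters 0, 1 and 3 in the WT runs, which had 29.9 and 29.4 CPM, 45.7 and 37.1 CPM and, in subcluster 3, 8.99 and 12.4 CPM. The 11 germinal centre B and plasma cell markers summed to 213, 200.2 and 272 CPM against 283, 297 and 299 CPM. The 13 myeloid markers summed to 106, 101 and 136 CPM against 103, 97.7 and 146 CPM, nearly all from Cst3. The 8 erythroid and platelet markers summed to 3.38, 2.67 and 5.91 CPM against 5.12, 5.31 and 6.88 CPM.

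Between genotypes, 81 of 6239 genes (1.3%) were higher and 366 (5.87%) lower in BKO members than in members of both WT runs. In the other Tfr cells the same comparison gave 69 higher and 138 lower of 6582, and WT run 2 against WT run 1 within members gave 14 and 27 of 6309. The file headers name Cell Ranger 4 for BKO and cellranger 7.0.1 for WT, and no label or header says whether intron reads were counted. With the running median over intron length taken off, 108 genes were higher and 119 lower. With TMM factors the counts were 154 and 192. Genotype, library and processing version cannot be told apart.

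Ly6a, which encodes the surface protein Sca-1 (chr15:74994877-74998031), led the higher genes. It stood at 58.2 CPM (46.5 to 71.8) and 64.5 CPM (54.4 to 75.9) in WT members and at 179.7 CPM (165 to 195) in BKO members. The other Tfr cells stood at 90.3, 83.8 and 245 CPM, so the BKO level was high in both, with log2 differences of 1.62 and 1.47 in members and 1.44 and 1.54 in the others. Rgs16, a regulator of G protein signalling, stood at 16.9, 21.4 and 50.998 CPM in members. Lag3, an inhibitory receptor, stood at 38.5, 27.1 and 81.5 CPM. Both were above each WT run in BKO, in members and also in subclusters 0, 1, 3 and 4. In subcluster 1 Rgs16 stood at 33.1, 31.6 and 75.1 CPM and Lag3 at 72.9, 79.4 and 177 CPM. Sostdc1, a secreted inhibitor of WNT and BMP signals, stood at 15.6, 7.56 and 37.3 CPM in members against 46.4, 43.3 and 36.1 CPM in other Tfr cells. It was thus lower than in other cells in WT members and close to them in BKO. Sccpdh, Cebpa, Ier5l and Plekho1 completed the 8.

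Klrg1, a receptor of differentiated T cells (chr6:122270596-122282882), led the lower genes. It stood at 33.8 CPM (25.1 to 44.6) and 36.5 CPM (29.01 to 45.3) in WT members and at 9.33 CPM (6.29 to 13.3) in BKO members, while other Tfr cells stood at 26.9, 26.9 and 24.5 CPM. The log2 difference between genotypes was -1.80 and -1.91 in members and -0.14 and -0.14 in the other cells, and the difference of these was not tested. Among the other cells, Klrg1 was also lower in BKO in subcluster 0, at 19.9, 19.6 and 10.1 CPM. Subcluster 1 had 47.9, 50.4 and 35.7 CPM and subcluster 4 had 47.7, 51.2 and 27.2 CPM, lower in BKO likewise. Subcluster 3 was higher in BKO, at 12.3, 8.23 and 15.03 CPM. Subcluster 1 made up 16.2%, 17.1% and 36.3% of Tfr cells, and the part of this makeup in the summed level was not tested. Cd226, an activating receptor, stood at 202, 187 and 68.7 CPM in members against 188, 198 and 54.98 CPM in other cells, low in BKO in both. Penk stood at 77.8, 57.4 and 23.3 CPM in members. Atp6v0d2, Nr6a1, Pip5k1b, Ccl5 and Cdon made up the rest of the 8.

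By list, the follicular programme had 4 of 19 higher in BKO members (Rgs16, Cebpa, Sostdc1 and Sh2d1a) and 0 lower, against 1.3% of all genes higher and 5.87% lower. Effector genes had 2 of 18 higher (Lag3 and Tigit) and 3 lower (Penk, Klrg1 and Entpd1). Interferon response genes had 2 of 19 higher (Igtp and Ly6a). Regulatory T cell identity had 1 of 14 lower (Nrp1). Glycolysis genes had 3 of 15 higher and 1 lower, and homing genes 1 of 15 higher and 3 lower. Resting and central genes had 2 of 14 lower, S100, annexin and galectin genes 2 of 15 and nuclear and long noncoding RNA 2 of 12. Of the B cell markers Ighm and Igkc were higher, with Igkc at 22.99, 21.8 and 46.6 CPM in members. None of the 78 ribosomal protein genes, 40 oxidative phosphorylation genes or 27 nucleolar genes passed, though 24 of the nucleolar genes had ratios below 0 to both runs.

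By the correlation of log2 CPM across 6132 genes, members were most like Tfr subcluster 1 among the Tfr subclusters of at least 50 cells, with Pearson r of 0.954, 0.963 and 0.961. Subcluster 4 had 0.943, 0.953 and 0.943 and subcluster 3 had 0.940, 0.946 and 0.950. Tfh subcluster 1 reached 0.956, 0.964 and 0.961. Genes are not independent replicates, and these values describe the summed profiles of libraries that share depth. Against Tfr subcluster 1, 37 genes were higher and 243 lower in members of all 3 libraries, and against subcluster 4, 36 and 297. No ribosomal protein gene passed against either.

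The subcluster was not uniform, and its makeup differed between genotypes. In the authors' clustering at resolution 0.6, cluster 0 held 142 of 275 members (51.6%) in WT run 1, 150 of 257 (58.4%) in WT run 2 and 45 of 449 (10.02%) in BKO. Cluster 3 held 104 (37.8%), 86 (33.5%) and 336 (74.8%). At this resolution members in BKO thus lay mostly in cluster 3. That cluster also held 89, 121 and 887 cells of Tfh subcluster 2 among its 273, 300 and 1470 cells. Ribosomal protein genes took 24.8%, 26.1% and 25.5% of the summed UMIs of members in cluster 3 and 20.3%, 21.4% and 21.7% in cluster 0. Npm1 stood at 1213, 1216 and 813 CPM in cluster 3 members and 714, 699 and 638 CPM in cluster 0 members. Klrg1 stood at 13.2, 10.9 and 8.47 CPM in cluster 3 members and 45.4, 53.7 and 3.21 CPM in cluster 0 members. In WT Klrg1 was thus mainly a feature of cluster 0 members. The BKO level in cluster 0 rests on very few UMIs of 45 members, so its counting error is wide. Ly6a was higher in BKO within cluster 3, at 73.8, 76.4 and 181 CPM, and within cluster 0, at 53.4, 55.3 and 96.2 CPM. At resolution 0.5, cluster 1 held 85.8%, 86.0% and 37.0% of members. Cluster 3 there held 2.91%, 3.50% and 28.5% of members, beside 98, 119 and 1483 cells of Tfh subcluster 2. At resolution 1, cluster 0 held 48%, 55.3% and 8.91% of members. Cluster 10 there held 30.5%, 25.7% and 60.8%, beside 22, 23 and 146 cells of Tfh subcluster 2. How far BKO members lay with Tfh subcluster 2 thus depended on the resolution.

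**Figure D5:**
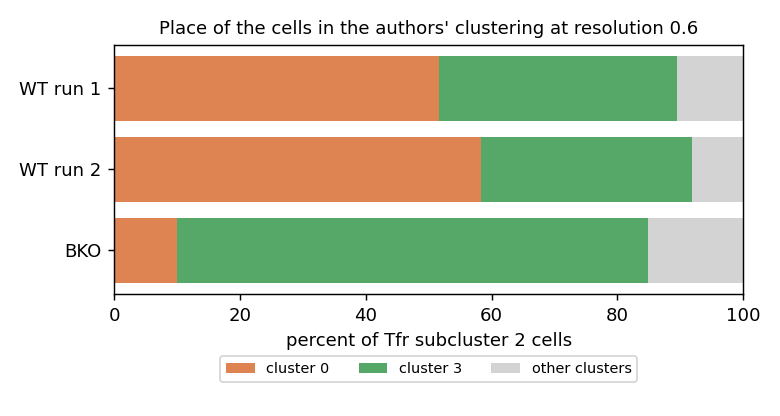
Share of Tfr subcluster 2 cells, in percent, in each cluster of the authors' clustering at resolution 0.6, by library. Cluster 0 holds 51.6%, 58.4% and 10.02% and cluster 3 holds 37.8%, 33.5% and 74.8%.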

How the data were processed

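The 3 deposited 10x 3′ samples were used. Cell Ranger and mm10 are named by the submitters' processing notes, with cellranger 7.0.1 for WT and Cell Ranger 4 for BKO per the file headers. The deposited matrices hold unnormalised UMI counts, with totals of 32518538, 54059000 and 85225125, and tables of clustered Tfh and Tfr cells, in which the mitochondrial percent of each deposited cell was under 10 and genes per cell at most 4000. No label or header speaks of doublets, and none were called here. Both WT matrices hold all 5143 table cells of 1 WT barcode suffix, which was assigned to run 1, where UMI totals equal the table in 78.2% of cells against 0% in run 2. The other suffix was assigned to run 2, which holds all 5117 cells with no total below the table's, while run 1 holds 5077. No total of that suffix equals the matrix (median table over matrix 0.659), and the totals correlate more closely with run 1 (r of 0.9993 against 0.9964), so this assignment is uncertain and the authors' clusters of run 2 rest on other counts than those used here. Counts were summed per library and group and scaled to CPM. With 1 library per genotype no count model was fitted, and the size rule took its place.

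The members and lists were chosen with earlier results of these data known. Named genes are the 15 per direction with the largest smallest ratio over the 3 libraries (13 qualified as higher), 5 per direction past the rule in 1 genotype only, 8 per direction between genotypes, list members past the rule in all 3, the 2 of highest level per list and 15 set genes. Receptor segments, unnamed models, ribosomal and mitochondrial genes were left out of the ranking, and some genes that the rule names are not reported here. Intron lengths and gene positions came from GENCODE vM21, in which 32235 of 32285 features matched. TMM factors came from edgeR 4.0.16 in R 4.3.3, the rest from Python 3.11.15. Tested on simulated data, the rule recovered 98 of 100 doubled and 96 of 100 halved genes in WT, and 100 and 98 in BKO. The simulated counts held counting error only, and the changed genes were chosen above the level minimum. They therefore cannot show how the rule does near 1.5-fold or with variation between cells or libraries.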

Additional observations from a re-analysis of the deposited data

Results flagged for a closer look

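For 22 of 163 genes chosen for naming, the ratio of Tfr subcluster 2 to other Tfr cells had 1 sign in both WT runs and the other sign in BKO. The difference between genotypes was not tested, and the makeup of the other Tfr cells differed between them. Values are log2 ratios in WT run 1, WT run 2 and BKO. Of the 22 genes, 4 passed the size rule in 1 genotype. The ratios were -0.62, -0.85 and 0.15 for Bcl6 and -1.55, -2.44 and 0.05 for Sostdc1, both lower in WT. They were 1.24, 1.08 and -0.19 for Fabp5, higher in WT, and 0.05, 0.08 and -0.65 for Cdon, lower in BKO.

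Another 5 missed the level minimum in at least 1 genotype. Ratios were 0.32, 0.43 and -1.34 for Klrg1, 0.70, 0.47 and -0.75 for Nr6a1, 1.05, 0.35 and -0.31 for Myc, -0.46, -0.48 and 0.09 for Ier5l and -0.95, -1.48 and 0.56 for Cd68. The counting intervals lay beyond 0 in all 3 libraries for 7 of the 22, Nr6a1 among them. The others of these were Tcf7, a factor of resting and follicular T cells, at -0.33, -0.29 and 0.27, and Nkg7, a granule protein of cytotoxic cells, at -0.40, -0.49 and 0.54. Ddx21, a nucleolar RNA helicase, had 0.31, 0.29 and -0.23, and S100a10, the partner of annexin A2, had 0.25, 0.27 and -0.08. B2m, the light chain of MHC class I, had 0.11, 0.08 and -0.12, and Ifi27l2a, an interferon-induced gene, had 0.25, 0.34 and -0.04. With subclusters 0, 1, 3 and 4 weighted equally the Nkg7 ratios were 0.79, 0.09 and 1.05, above 0 in each library.

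The rest had a counting interval that covers 0 in at least 1 library. Klf2 had -0.89, -0.57 and 0.11, Gata3 had 0.15, 0.10 and -0.34, Nfkbia had 0.01, 0.01 and -0.39 and Bcl2a1b had 0.17, 0.02 and -0.21. Mir142hg had -0.04, -0.06 and 0.04, Cd74 had 0.40, 0.47 and -0.11 and Cst3 had 0.05, 0.09 and -0.16.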

How the results depend on the processing

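Counts of genes higher and lower were 93 and 481 in WT, 51 and 850 in BKO, 24 and 270 in both, and 81 and 366 between genotypes as reported. They were 260 and 216 in WT, 216 and 391 in BKO, 101 and 102 in both, and 154 and 192 between genotypes with TMM factors, and 300 and 270 in WT, 220 and 483 in BKO, 107 and 126 in both, and 127 and 378 between genotypes with ribosomal and mitochondrial genes left out of the total. A minimum of 1 CPM gave 407 and 1310 in WT, 400 and 2112 in BKO, 70 and 595 in both, and 544 and 1353 between genotypes, and one of 50 CPM gave 48 and 291 in WT, 26 and 451 in BKO, 18 and 179 in both, and 30 and 152 between genotypes. At 2-fold they were 10 and 48 in WT, 0 and 103 in BKO, 0 and 21 in both, and 11 and 25 between genotypes. With the mean of per-cell CPM 45 were higher in WT and 9 in both, and with cells thinned to 2500 UMIs 103 were higher in BKO, 7 in both and 130 between genotypes. With the other subclusters weighted equally 55 were higher in WT and 15 in both. With the trend over intron length taken off the counts were 90 and 114 in WT, 90 and 208 in BKO, 19 and 51 in both, and 108 and 119 between genotypes. Leaving out each WT run in turn gave 124 to 191 higher and 702 to 815 lower in WT, 25 to 30 and 346 to 363 in both, and 145 to 160 and 482 to 563 between genotypes. The cause of these changes was not tested, beyond the fewer or more genes measured and runs required. Of all Tfh and Tfr cells the members made up 5.35%, 5.02% and 5.32%. The ratio of Gar1 in WT run 2 became -0.068 with thinning, and that of Rora in BKO 0.028 with the intron trend taken off. The equal weights, and the intron trend outside the comparison of genotypes, were chosen after seeing the data. No paired analysis was possible because the WT samples are 2 runs of the same cells, each genotype is 1 library, and the groups share only 1 replicate number.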
